A study of Mus musculus with 3 samples.

Results

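Of the NR2F2 peaks counted in fetal mouse testis, 1384 (13.7%, beside 8685 others) lay between genes at a middle distance from any gene start, and these intergenic peaks are described here. A peak was included when its midpoint lay outside every curated RefSeq transcript and its nearer edge was more than 10 kb and at most 100 kb from the nearest transcription start site (TSS). The choice used positions only and no counts. Of the other peaks, 1129 lay inside a transcript at the same distance, 796 lay over 100 kb from any TSS, 915 lay 1 to 10 kb away, 3400 lay within 1 kb and 2440 overlapped a TSS. Another 5 peaks lay on unplaced contigs and had no class.

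The chromatin came from whole testes of CD-1 mouse embryos, an outbred stock with no engineered allele given, at the E14.5 stage (E for embryonic day), dissected away from the mesonephros and snap frozen. Chromatin immunoprecipitation (ChIP) with a COUP-TFII antibody was done in 2 experiments on sheared chromatin (18 μg) from a pool of 30 testes, and 1 input library of chromatin without immunoprecipitation served both. The study calls the ChIP libraries biological replicates, and the sources used here do not say whether each had a pool of its own. Counts at all peaks summed to 426784 in ChIP replicate 1, 364261 in ChIP replicate 2 and 73251 in the input, and these totals are not sequencing depths.

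NR2F2, also called COUP-TFII, is an orphan nuclear receptor, a transcription factor whose zinc fingers recognize the half-site AGGTCA, alone or as a pair in direct repeat. In the fetal testis it is expressed in cells of the interstitium, the tissue between the testis cords that gives rise to Leydig cells. Sites far from gene starts often carry enhancers, which can act on genes over long distances, so the nearest gene named for a peak is a landmark and not a shown target. Because the whole organ was used, strong binding in few cells and weak binding in many cells cannot be told apart.

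The 6 peaks below had the highest mean ChIP count among the 220 intergenic peaks that held an extended half-site, AGAGGTCA or AGGGGTCA, and they are shown because they carry the motif at strong binding. Each line gives the nearest gene, the position in mm10 and the plus strand of the peak from 5′ to 3′, read from the RefSeq copy of the same assembly. Capitals mark the extended half-site on either strand, where TGACCTCT and TGACCCCT are its reverse complements.

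Foxk1 chr5:142367398-142367697: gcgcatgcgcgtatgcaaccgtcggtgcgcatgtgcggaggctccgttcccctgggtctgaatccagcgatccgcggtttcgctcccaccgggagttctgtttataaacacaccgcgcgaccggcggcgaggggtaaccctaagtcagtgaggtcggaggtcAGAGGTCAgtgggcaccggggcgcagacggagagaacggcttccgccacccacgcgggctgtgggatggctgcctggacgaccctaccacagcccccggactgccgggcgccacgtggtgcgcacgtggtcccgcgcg
4930526I15Rik chr9:124441745-124442044: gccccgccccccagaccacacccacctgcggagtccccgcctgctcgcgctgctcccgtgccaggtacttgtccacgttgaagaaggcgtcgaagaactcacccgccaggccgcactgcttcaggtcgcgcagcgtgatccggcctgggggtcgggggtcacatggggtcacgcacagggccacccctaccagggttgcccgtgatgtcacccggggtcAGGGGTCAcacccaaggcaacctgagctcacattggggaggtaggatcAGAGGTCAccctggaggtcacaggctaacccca
Gm14321 chr2:167765111-167765410: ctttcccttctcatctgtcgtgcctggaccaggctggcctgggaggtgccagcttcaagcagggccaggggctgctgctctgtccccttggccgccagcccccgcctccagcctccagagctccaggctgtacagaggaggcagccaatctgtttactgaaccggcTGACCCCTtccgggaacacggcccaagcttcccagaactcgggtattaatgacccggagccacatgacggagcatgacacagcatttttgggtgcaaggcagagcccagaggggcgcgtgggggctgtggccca
4930526I15Rik chr9:124440067-124440366: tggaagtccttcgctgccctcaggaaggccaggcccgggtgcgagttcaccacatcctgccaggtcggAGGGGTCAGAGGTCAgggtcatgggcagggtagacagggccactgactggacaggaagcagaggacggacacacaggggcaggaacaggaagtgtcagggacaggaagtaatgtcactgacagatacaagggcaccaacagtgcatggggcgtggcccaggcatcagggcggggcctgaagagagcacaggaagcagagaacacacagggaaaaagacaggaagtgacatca
Foxp4 chr17:47978446-47978745: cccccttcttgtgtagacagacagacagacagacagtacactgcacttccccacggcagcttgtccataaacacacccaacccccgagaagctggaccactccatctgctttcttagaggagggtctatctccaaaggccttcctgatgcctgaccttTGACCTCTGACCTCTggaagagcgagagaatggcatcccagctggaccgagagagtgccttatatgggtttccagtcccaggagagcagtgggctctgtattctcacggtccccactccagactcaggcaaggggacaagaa
Wnt10a chr1:74806347-74806646: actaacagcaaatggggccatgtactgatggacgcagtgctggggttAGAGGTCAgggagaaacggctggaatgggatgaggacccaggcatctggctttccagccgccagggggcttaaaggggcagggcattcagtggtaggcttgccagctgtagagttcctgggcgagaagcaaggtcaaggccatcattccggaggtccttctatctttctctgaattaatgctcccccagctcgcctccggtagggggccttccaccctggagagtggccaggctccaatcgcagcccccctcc

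In the peaks near Foxp4 and at chr9:124440067-124440366 the capitals merge into a run, because 2 extended half-sites overlap there as a direct repeat with a spacer of 1 base. The Foxk1 peak and the peak at chr9:124441745-124442044 each also held a direct repeat of this spacing, of which only the 3′ copy is in the extended form.

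A further 3 peaks, which lacked the extended form, are shown for other motifs that they held. In the Gm11482 peak the capitals mark 13 half-sites of the broad form (A or G, G, G or T, TCA), all read as TGACCC on this strand, in a tandem repeat that covered most of the peak: 91% of its bases were soft-masked as repeats in the assembly.

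Gm11482 chr4:63664095-63664394: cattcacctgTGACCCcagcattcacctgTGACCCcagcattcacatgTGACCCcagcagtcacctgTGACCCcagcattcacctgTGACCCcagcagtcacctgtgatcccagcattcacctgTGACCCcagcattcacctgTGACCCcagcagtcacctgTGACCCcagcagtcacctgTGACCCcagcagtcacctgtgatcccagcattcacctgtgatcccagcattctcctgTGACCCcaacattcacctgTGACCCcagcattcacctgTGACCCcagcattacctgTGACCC

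In the peaks near Gm30476 and Tcf3 the capitals mark the E-box CAGCTG, the site of basic helix-loop-helix (bHLH) factors, with 1 copy near Gm30476 and 3 copies near Tcf3. The Gm30476 peak also held the half-sites AGGTCA and GGGTCA, left in small letters. They form a direct repeat with a spacer of 2 bases on the opposite strand.

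Gm30476 chr17:73072375-73072674: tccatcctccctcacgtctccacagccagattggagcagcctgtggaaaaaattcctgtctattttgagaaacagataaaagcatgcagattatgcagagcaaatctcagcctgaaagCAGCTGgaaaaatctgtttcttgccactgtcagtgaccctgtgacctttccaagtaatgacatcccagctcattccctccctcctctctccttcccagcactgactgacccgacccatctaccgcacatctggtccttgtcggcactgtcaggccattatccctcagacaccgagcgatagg
Tcf3 chr10:80444424-80444723: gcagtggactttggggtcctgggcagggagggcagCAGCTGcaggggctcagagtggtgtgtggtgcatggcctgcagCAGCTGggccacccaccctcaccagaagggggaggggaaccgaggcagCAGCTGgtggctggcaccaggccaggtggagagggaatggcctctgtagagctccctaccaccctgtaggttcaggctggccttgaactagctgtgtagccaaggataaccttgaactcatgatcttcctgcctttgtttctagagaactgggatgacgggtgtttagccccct

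The strongest intergenic peak was 33800 bp upstream of Foxk1 (gene identifier 17425), which encodes a forkhead transcription factor, and 1728 bp from the start of the predicted transcript Gm31068, which is not in the curated set. It had 238 counts in ChIP replicate 1, 166 in ChIP replicate 2 and 8 in the input. Next came the peak at chr9:124441745-124442044, downstream of the non-coding gene 4930526I15Rik (75135), with 150 and 166 ChIP counts and 5 input counts. Both ChIP libraries were far above the input at each of these peaks. Where 3 counts are given from here on, they are those of ChIP replicate 1, ChIP replicate 2 and the input, in that order. The tandem repeat near Gm11482 (102632940) had 155, 158 and 6 counts. The peak near Gm30476 (102632391) had 150, 132 and 11 counts. A peak 10326 bp upstream of Myo18a (360013), which encodes an unconventional myosin, had 146, 131 and 7 counts. The sixth, 10789 bp upstream of Tcf3 (21423), had 146, 122 and 12 counts. Tcf3 encodes an E protein, itself a bHLH factor that binds E-boxes. The 4 remaining peaks with printed sequences had mean ChIP counts below these 6. Near Gm14321 (100048985) the counts were 140, 101 and 14, and at the second peak near 4930526I15Rik they were 124, 116 and 17. Near Foxp4 (74123), which encodes another forkhead factor, they were 101, 99 and 8, and near Wnt10a (22409), a Wnt ligand gene, they were 99, 94 and 6. The 2 peaks near 4930526I15Rik thus had ChIP counts within 1.5-fold of each other, while the input was 5 at the one and 17 at the other.

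To ask which intergenic peaks stood above the rest without knowing sequencing depths, the ChIP to input ratio of each peak was compared with that of the typical peak in edgeR's quasi-likelihood test, with TMM scaling on the counts at all peaks. With 1 input library, the spread came from the ChIP libraries alone and that of the input was never measured, so each call assumes that the input varies as they do. Most calls rest on input counts under 10. At a Benjamini-Hochberg adjusted p under 0.05, 12 intergenic peaks (0.867%) were above the typical peak, against a background of 1.53% of all peaks. Another 2 (0.145%) were below it, against 0.0497% of all peaks. Without adjustment 102 were above (7.37%, against 7.89% of all peaks) and 61 were below (4.41%, against 2.55%), which turned to 84 above and 89 below without TMM factors. The median fitted log2 ratio was -0.10 over the intergenic peaks and 0.02 over all peaks.

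**Figure D1:**
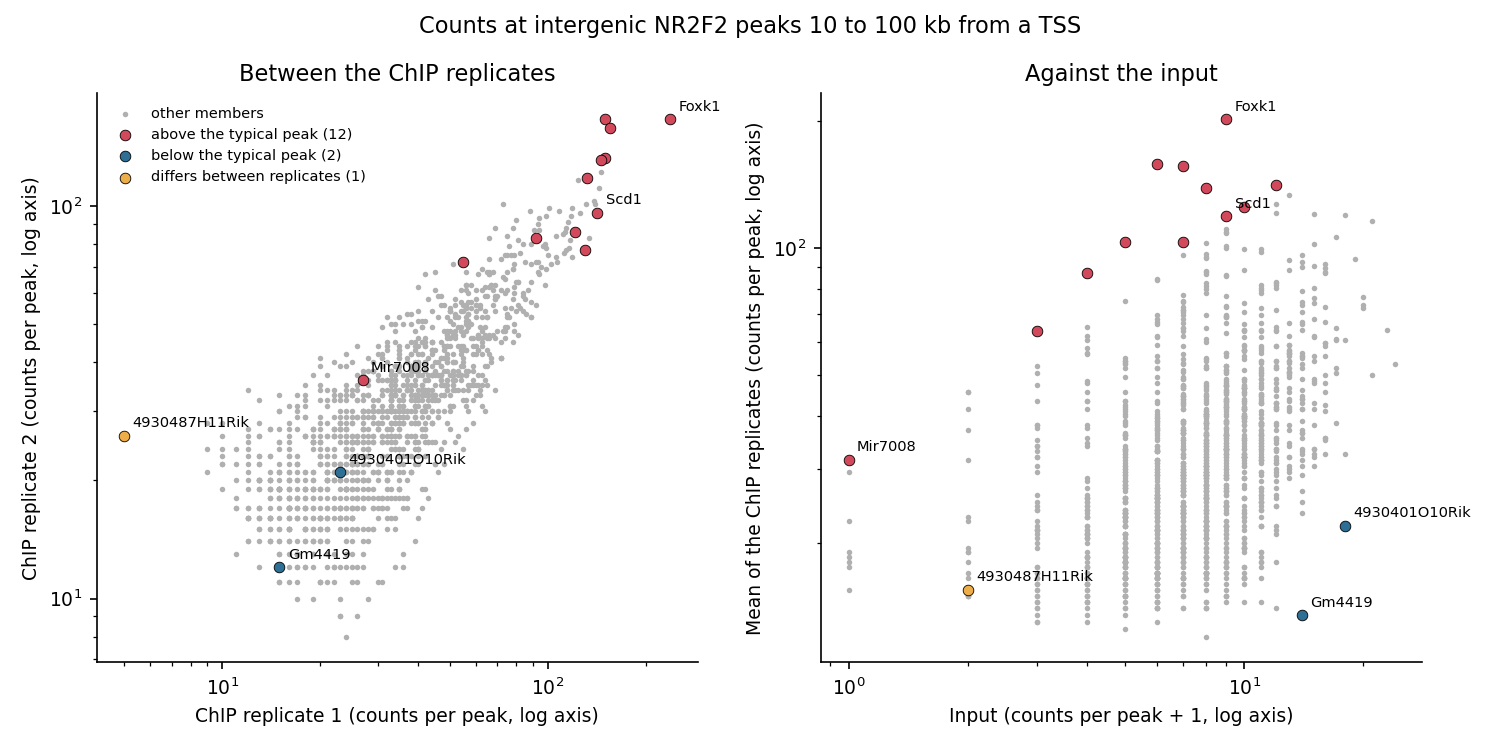
Counts per peak at the 1384 intergenic peaks on log axes, with ChIP replicate 1 against ChIP replicate 2 on the left and the input (with 1 added) against the mean of the ChIP replicates on the right; each point is a peak. Red points are the 12 peaks above the typical peak, blue the 2 below it and yellow the 1 that differed between the replicates; the red points sit along the upper edge of the cloud against the input and the blue points at its lower right.

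The Foxk1 peak stood 2.33 ± 0.38 (SE) log2 units above the typical peak (edgeR adjusted p = 8.96e-07). The peak near 4930526I15Rik stood 2.66 ± 0.46 log2 units above it (edgeR adjusted p = 5.11e-06), and the repeat near Gm11482 stood 2.39 ± 0.44 above it (edgeR adjusted p = 2.91e-05). These 3 were also called with DESeq2's size factors in edgeR, with adjusted p of 0.0273, 0.0364 and 0.0364, and the other 9 were not. DESeq2 itself called the Foxk1 and 4930526I15Rik peaks alone and gave 1304 of the 1384 peaks no adjusted p. Without TMM factors 6 remained above the typical peak and 2 below it. Of the 12 peaks above, 5 lay inside a transcript of another gene model. The Myo18a peak overlapped a GENCODE start of Myo18a itself, and the peak near 4930526I15Rik lay in GENCODE Ppp2r3d, 702 bp from a start. The Gm11482 peak lay outside other transcripts but 716 bp from the GENCODE start of Gm11214. Thus the 3 peaks that were also called with DESeq2's size factors each lay within 2 kb of a start in a predicted or GENCODE model. The A330074K22Rik peak lay in Gse1 in both models, the Gm30476 peak in the predicted Gm41616 and the 6030469F06Rik peak in GENCODE Gm48112.

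Among the other 9 peaks above the typical peak, 1 lay in the 3′ direction of Scd1 (20249), which encodes stearoyl-CoA desaturase, a lipid-synthesizing enzyme. It was 18807 bp from the TSS and had 142 and 96 ChIP counts and 8 input counts, a log2 ratio of 1.57 ± 0.44 (edgeR adjusted p = 0.0316). A peak 78212 bp from Sik1 (17691), which encodes a salt-inducible kinase, had 132, 118 and 9 counts and an E-box, and lay 1.48 ± 0.42 log2 units above the typical peak (edgeR adjusted p = 0.0346). A peak near Cd180 (17079), which encodes a surface receptor of B cells and macrophages, had 130, 77 and 6 counts. It lay 1.78 ± 0.50 log2 units above the typical peak (edgeR adjusted p = 0.0302). At these 3 sites the libraries ranked alike, with replicate 1 highest and the input lowest.

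Several of the remaining calls rested on very few input counts. Near Gm3032 (100040902) the counts were 92, 83 and 3, and near 6030469F06Rik (100043065) they were 55, 72 and 2. Their log2 ratios were 2.54 ± 0.63 and 2.66 ± 0.76 (edgeR adjusted p = 0.00702 and 0.0360), and the Gm3032 peak held 12 half-sites of the broad form with no soft-masked base. The peak near Mir7008 (102465610) had 27 and 36 ChIP counts and 0 input counts, so the ChIP counts were at least 9-fold and 12-fold higher than a floor of 3 input counts. It was at the limit of the call (edgeR adjusted p = 0.0423), and 76% of its bases were soft-masked. Near A330074K22Rik (434353) the counts were 121, 86 and 4, with a log2 ratio of 2.36 ± 0.56 (edgeR adjusted p = 0.00331). The Myo18a and Gm30476 peaks had log2 ratios of 1.98 ± 0.44 and 1.36 ± 0.38 (edgeR adjusted p = 0.00109 and 0.0319).

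The Tcf3 peak, sixth by count, was not called (edgeR adjusted p = 0.0935), and neither was the Wnt10a peak whose sequence is printed above (edgeR adjusted p = 0.0528). With peaks limited to at least 10 input counts, 296 of the intergenic peaks remained, and the Tcf3 peak was then called (edgeR adjusted p = 0.0108). That setting called 4 above and 2 below in all, of which 3 were among the 14 calls given above.

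Both peaks below the typical peak had high input counts. The one near 4930401O10Rik (73816) had 23 and 21 ChIP counts and 17 input counts, a log2 ratio of -1.94 ± 0.49 (edgeR adjusted p = 0.00875). The one near Gm4419 (100043407) had 15 and 12 ChIP counts and 13 input counts, so there the count of the second ChIP library was below that of the input, and the log2 ratio was -2.25 ± 0.60 (edgeR adjusted p = 0.0173). The 2 calls held without TMM factors and with at least 10 input counts, and were lost with DESeq2's size factors (edgeR adjusted p = 0.120 and 0.149). The highest input counts of all intergenic peaks were 23 near Gm33104 (102635880), with 45 and 61 ChIP counts, and 22 near Mir6935 (102465564), with 81 and 47. Neither of these differed from the typical peak (edgeR adjusted p = 0.145 and 0.439). The input count was 0 at 8 intergenic peaks. At the one near Pja1 (18744) on the X chromosome the ChIP counts were 38 and 21, at least 12.7-fold and 7-fold higher than the floor.

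Agreement between the ChIP replicates was examined at the same peaks. In an exact two-sided binomial test of replicate 1 against replicate 2, 1 intergenic peak differed after adjustment over all peaks, against a background of 0.0993%. It lay 79648 bp upstream of 4930487H11Rik (74992), between Nrp2 and Ino80d, with 5 counts in replicate 1, 26 in replicate 2 and 1 in the input (exact binomial adjusted p = 0.0225). Without adjustment 148 differed (10.7%, against 8.83% of all peaks), 52 with a higher share in replicate 1 and 96 with a higher share in replicate 2. The test sets the difference against counting error only and compares these 2 libraries, not conditions. Across the 1384 peaks, Pearson's r of log2(CPM + 1) was 0.800 and Spearman's rho was 0.793, and Spearman's rho with the input was 0.460 for replicate 1 and 0.414 for replicate 2. The peaks share libraries and were all called on the merged ChIP reads, so these values are descriptive.

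In ChIP counts the intergenic peaks lay a little below all peaks, whose medians were 37 in replicate 1, 31 in replicate 2 and 7 in the input. In ChIP replicate 1 the counts ran from 5 to 238 with a median of 33, in ChIP replicate 2 from 8 to 166 with a median of 29, and in the input from 0 to 23 with a median of 7. Both ChIP counts were above the input count at 1382 of the 1384 peaks, a property that the selection of the peaks on ChIP reads favors. The intergenic peaks held 12.3% of the counts at peaks in replicate 1, 12.7% in replicate 2 and 13.5% in the input. Among the 100 peaks with the highest mean ChIP count in the series 11 were intergenic peaks of this kind, and among the top 1000 there were 111. Their share of all peaks was 13.7%.

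The ChIP to input ratio was then set beside that of other positions. With 0.5 added to each count, the median ratio of the intergenic peaks was 4.58 with the first ChIP replicate and 4.14 with the second, which average 4.36 ± 0.31 (SD, n = 2). For peaks inside transcripts at the same distance it was 4.48 and 4.08, and for peaks over 100 kb away 4.27 and 4.07. On the log2 scale the intergenic peaks were higher than the first by 0.03 ± 0.0064 and than the second by 0.06 ± 0.05 (mean ± SD, n = 2). With at least 10 input counts these differences were -0.06 and 0.15, so the order of the 3 distal classes was not stable. Peaks overlapping a TSS had median ratios of 5.57 and 4.43, and the intergenic minus TSS difference on the log2 scale was -0.28 in replicate 1 and -0.10 in replicate 2. The direction was the same in both libraries. With 2 ChIP libraries that share 1 input, none of these differences was tested.

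**Figure D2:**
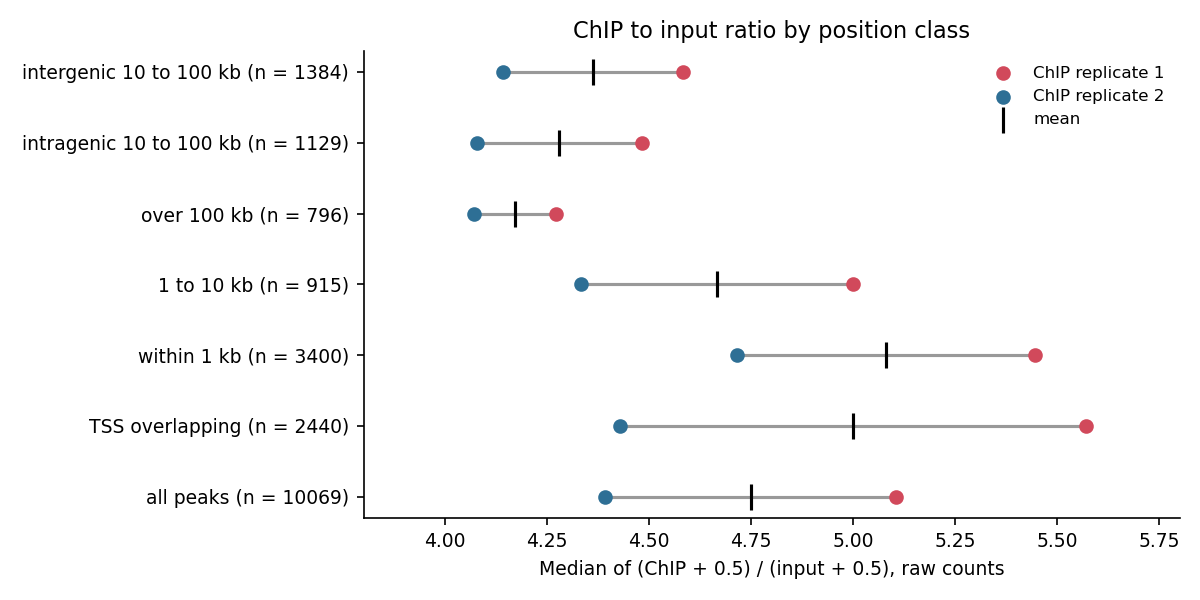
Median ratio of ChIP to input counts, with 0.5 added to each, for peaks grouped by position, with ChIP replicate 1 in red, ChIP replicate 2 in blue and their mean as a black bar. The intergenic peaks 10 to 100 kb from a TSS sit at 4.14 and 4.58, below the values of 4.39 and 5.11 over all peaks, on an axis that does not start at 0.

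The distance to the nearest TSS had a median of 32944 bp, with quartiles of 20094 and 57088 bp and a range of 10003 to 99889 bp. The peak lay upstream of the nearest TSS in 850 cases (61.4%) and beyond the gene, on its 3′ side, in 534. Both sides had like counts, with medians of 32 and 28 in the ChIP replicates upstream and 34 and 30 downstream, and mean median ratios of 4.36 ± 0.31 and 4.35 ± 0.32 (SD, n = 2). The stretch between the flanking genes had a median length of 108942 bp and exceeded 1 Mb at 17 peaks. In bins of distance from 10 to 20, 20 to 30, 30 to 50, 50 to 75 and 75 to 100 kb there were 345, 274, 336, 251 and 178 peaks, and the mean median ratio was 4.40, 4.44, 4.60, 4.19 and 4.14. The SD between the replicates was 0.20 to 0.44 in these bins. Both replicates were lower at 50 to 75 kb (4.33 and 4.05) than at 30 to 50 kb (4.78 and 4.42), a difference that was not tested.

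Per 10 Mb of chromosome, the peaks were densest on chromosome 17, with 6.84, followed by 6.26 on chromosome 9 and 6.23 on chromosome 11. The X chromosome held 1.75 per 10 Mb, 30 peaks in all, which is 14.9% of its peaks of every class. No peak of any class lay on the Y chromosome.

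The extended half-site was found in 220 of the 1384 peaks (15.9%, Wilson 95% interval 14.1% to 17.9%). In windows of 300 bp lying 2 kb to either side of the same peaks the share was 2.999%. It was 10.5% over all peaks, 17.5% in the peaks inside transcripts at the same distance, 16.3% in those over 100 kb away and 5.25% in those overlapping a TSS. The 3 distal classes thus lay close together and apart from the TSS class. A match is a description of the letters and does not show which protein was bound. Outside soft-masked bases 12.8% of the intergenic peaks held a match. At least 2 copies were present in 44 of the 220 peaks. The copy nearest to the peak center lay within 50 bp of it in 118 of the 220 (53.6%), with a median offset of 45 bp. An even spread of 1 copy over the peak would give 34.2%, and a higher share in the 44 peaks where the nearest of several copies was taken.

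**Figure D3:**
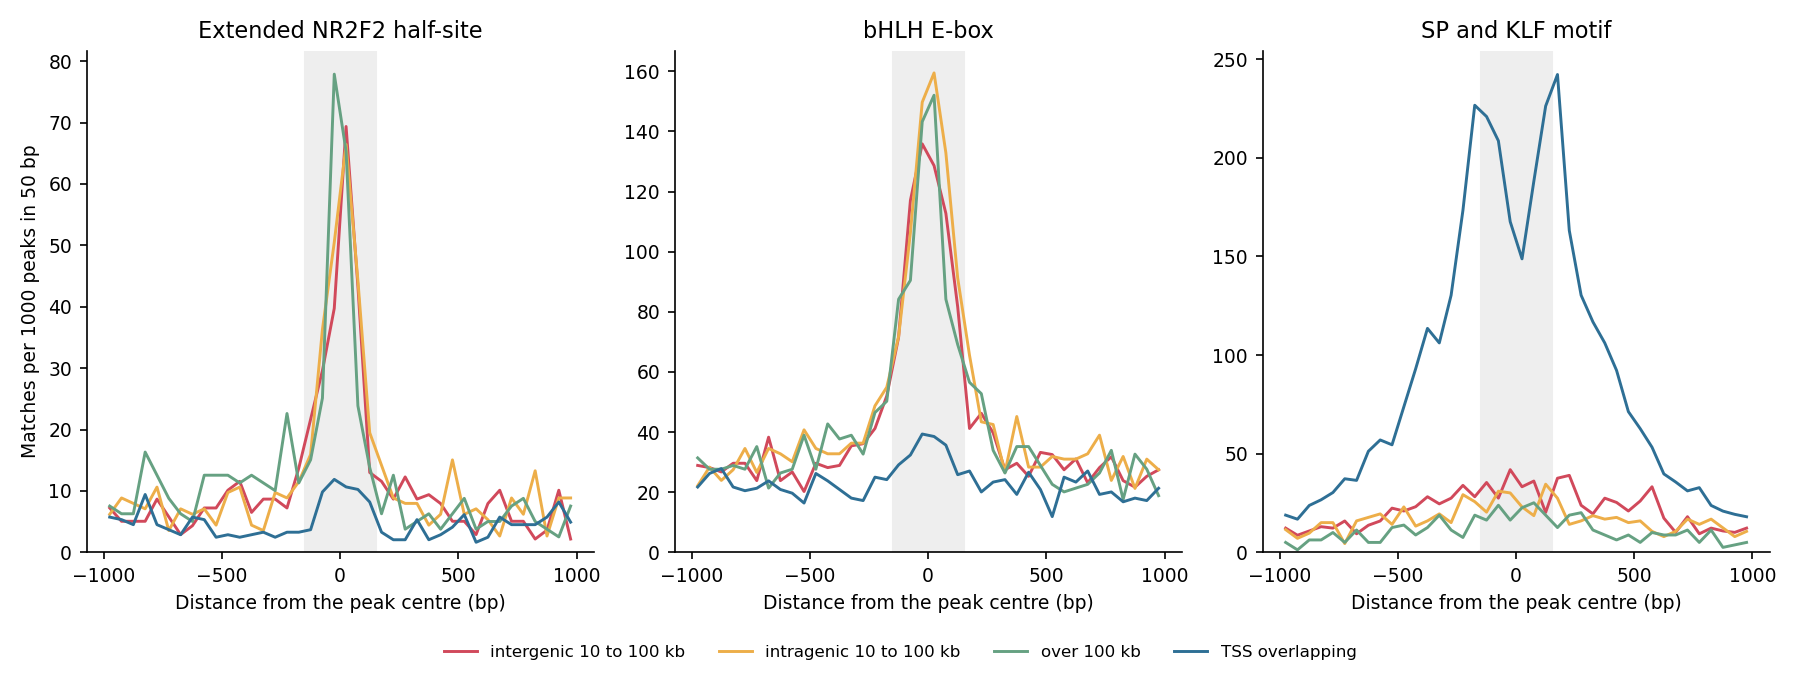
Number of motif matches per 1000 peaks in bins of 50 bp, against the distance from the peak center in bp, for the extended NR2F2 half-site, the E-box CAGCTG and the SP and KLF motif; lines are the 4 position classes and the gray band is the 300 bp peak. In the intergenic class the half-site went from at most 12.3 per bin beyond 200 bp to 69.4 beside the center and the E-box reached 136, while the SP and KLF motif was at most 41.9 in that class and up to 242 in the TSS class.

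Single forms of the half-site were counted separately. AGGTCA was present in 729 intergenic peaks (52.7%, against 17.3% of their flanks) and GGGTCA in 518 (37.4%, against 12.5%). The forms with T at the third position were less frequent than in the flanks: AGTTCA was in 18.9% of peaks and 20.9% of flanks, and GGTTCA in 11.9% and 13.7%. Of the 2 extended forms, AGAGGTCA was in 148 peaks (10.7%, against 1.99%) and AGGGGTCA in 88 (6.36%, against 1.05%). The forms with G at the third position were thus about 3 times as frequent as in the flanks, and these shares carry no test. The windows differ in base composition, with a median GC content of 53.3% in the peaks and 45.3% in the flanks, and the part of that difference in the shares was not tested.

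Pairs of broad half-sites were counted by orientation and spacing. A direct repeat with 1 base between the copies was the most frequent pair, in 67 peaks (4.84%, against 0.397% of flanks and 2.78% of all peaks). Direct repeats with spacers of 0, 2 and 8 bases were in 40, 29 and 30 peaks, and those with spacers of 3 to 7 bases in 6 to 16 peaks each. Soft-masked bases overlapped every match in 31 of the 67 peaks with a 1 base spacer and in 16 of the 30 with an 8 base spacer. Peaks with a 1 base direct repeat had a median ratio of 5.29 in replicate 1 and 4.85 in replicate 2 (mean 5.07 ± 0.31, SD, n = 2), against a mean of 4.35 ± 0.33 in the 1317 without one. They had median ChIP counts of 35 and 35, against 33 and 29. For the extended half-site the mean median ratio was 4.51 ± 0.078 with and 4.35 ± 0.34 without a match, a difference within the spread between the replicates.

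The E-box CAGCTG was less frequent than AGGTCA and more frequent than GGGTCA. It occurred in 597 intergenic peaks (43.1%, Wilson 95% interval 40.5% to 45.8%), in 13.7% of their flanks, in 28.7% of all peaks and in 17.5% of peaks overlapping a TSS. Peaks inside transcripts at the same distance held it in 47.5% and those over 100 kb away in 43.6%. The other E-box forms counted were closer to the flanks. CATCTG was in 30.3% of peaks and 21.8% of flanks, CACGTG in 6.79% and 4.34%, CACCTG in 19.4% and 19.4%, CAACTG in 14.45% and 14.52%, CATTTG in 15.2% and 20.8%, CAATTG in 2.96% and 4.41% and CATATG in 4.99% and 8.20%. Of the 8 forms counted, CAGCTG had the highest ratio of peaks to flanks, 3.15.

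The share with an E-box also followed the height of the peak. From the weakest to the strongest quartile by mean ChIP count it was 32.7%, 42.2%, 43.9% and 53.8%. The 597 peaks with an E-box had median ChIP counts of 36 and 32, against 30 and 27 in the 787 without, and the input median was 7 in both sets. GC content also rose with height, from a median of 51.0% in the weakest quartile to 56.0% in the strongest. Among peaks with GC content of at most 53.3%, the E-box was in 37.8% of those with a mean ChIP count of at most 30.5 and in 54.0% of those above it. Among peaks of higher GC content it was in 36.4% and 45.9%. Within each of these GC sets the peaks with higher counts also had higher GC content, with medians of 50.7% against 49.3% and 58% against 57%. The part of GC content in the E-box shares was not tested. The mean median ratio was 4.63 ± 0.34 with and 4.22 ± 0.23 without an E-box (SD, n = 2).

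Half-site and E-box were also counted together. AGGTCA and CAGCTG both occurred in 317 peaks (22.9%), AGGTCA alone in 412 (29.8%), CAGCTG alone in 280 (20.2%) and neither in 375 (27.1%). The mean median ratio was 4.77 ± 0.22 for both, 4.26 ± 0.17 for AGGTCA alone, 4.45 ± 0.53 for CAGCTG alone and 4.19 ± 0.37 for neither (SD, n = 2). The peaks with both motifs had the highest value in each replicate, 4.93 and 4.62. The 54 peaks with at least 3 E-boxes had median ChIP counts of 49.5 and 35 and ratios of 6.004 and 4.58, so there the replicates lay further apart.

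**Figure D4:**
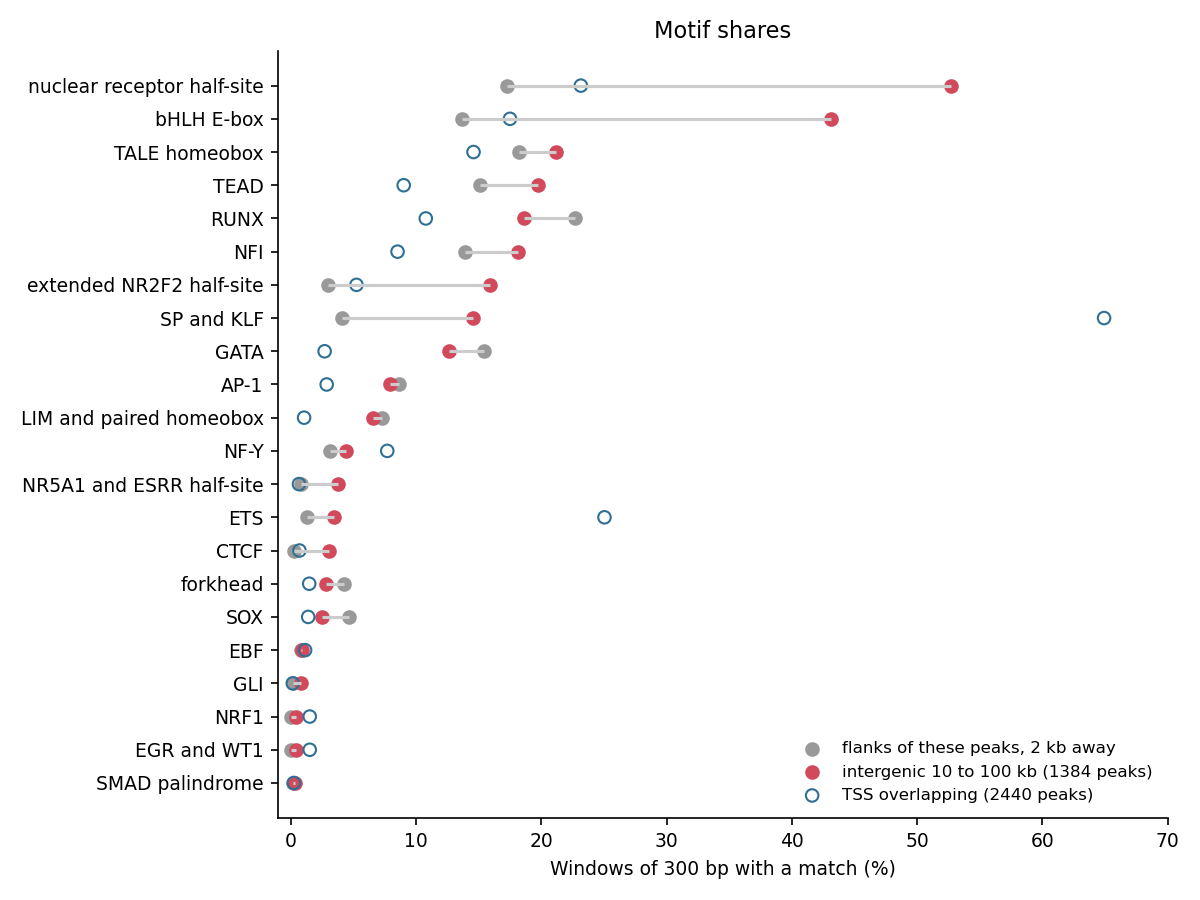
Percentage of windows of 300 bp with a match on either strand for 22 motifs (the broad half-site, at 80.1% against 49.9% of flanks, is not drawn), in the intergenic peaks (red), in their flanks 2 kb away (gray) and in peaks overlapping a TSS (open blue circles). Among the motifs drawn, the widest gaps between red and gray are those of the nuclear receptor half-site, 52.7% against 17.3%, and of the E-box, 43.1% against 13.7%.

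Other motifs were searched by fixed letters on both strands. The site TCAAGGTCA, bound by NR5A1, the steroidogenic regulator, and by estrogen-related receptors, contains the AGGTCA half-site. It was in 52 peaks (3.76%, against 0.831% of flanks), and in 6.20% of peaks inside transcripts at the same distance. Matches to the CTCF motif, the site of an architectural factor, were in 42 peaks (3.03%, against 0.253% of flanks and 1.61% of all peaks). GLI, the motif of Hedgehog effectors (GACCACCCA), was in 11 peaks (0.795%, against 0.217%). Shares of the TEAD motif GGAATG (19.7% and 15.1%), the NFI half-site TTGGCA (18.1% and 13.9%) and the TALE homeobox motif TGACAG (21.2% and 18.2%) were somewhat above the flanks. The motif of GATA factors, AGATAA, was at 12.6% against 15.4% of flanks, that of RUNX factors, TGTGGT, at 18.6% against 22.7%, and that of SOX factors, ACAATGG, at 2.53% against 4.66%. Motifs known from promoters were above the flanks and below the TSS class. GGGCGG of SP and KLF factors was in 14.52% of intergenic peaks, 4.08% of their flanks and 64.9% of peaks overlapping a TSS, and CCGGAAG of ETS factors was in 3.47%, 1.30% and 25.04%.

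Base composition separated the intergenic peaks from the TSS class in the same way. The median observed to expected ratio of CpG was 0.27, against 0.83 for peaks overlapping a TSS, and median GC content was 53.3% against 65.7%. A total of 159 peaks (11.5%) were rich in CpG, here meaning a ratio above 0.6 with GC content above 50%, against 89.0% of peaks overlapping a TSS and 4.96% of peaks inside transcripts at the same distance. These 159 had median ChIP counts of 40 and 31, against 32 and 28 in the rest. The median soft-masked share was 7%, against 0% over all peaks, and 31 peaks (2.24%) were masked over more than 50% of their bases, against 1.13% of all peaks.

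Some peaks outside all curated transcripts lay in or at other gene models. A predicted RefSeq transcript covered the midpoint of 313 peaks and a GENCODE M21 transcript that of 243, either covered 430 (31.1%) and neither covered 954 (68.9%). In these 954 the median counts were 32, 28.5 and 7, in the order of replicate 1, replicate 2 and input. Their median ratio was 4.59 in replicate 1 and 4.15 in replicate 2 (mean 4.37 ± 0.31, SD, n = 2), against 4.58 and 4.14 over all intergenic peaks. The TSS of a predicted transcript was overlapped by 37 peaks and that of a GENCODE transcript by 36, 65 by either and 8 by both. The strongest of those at a predicted start lay between Tlr12 and Phc2 (54383), at the start of the long non-coding RNA gene Gm12958 in both models, with 112, 76 and 18 counts. A peak in the pseudogene Zfp520-ps, near B830017H08Rik (433004), had 82, 76 and 13 counts, and a peak in the pseudogene Gm14371, near Vapb (56491), had 66, 67 and 12. In all, 20 peaks lay in a pseudogene, where near-identical copies elsewhere make read placement uncertain, and 6 overlapped a tRNA gene. Among these 6 were the peaks near Wnt10a at chr1:74816782-74817081, with 99, 69 and 5 counts, and near Trim55 (381485), with 84, 59 and 11.

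A published enhancer lay under 26 of the intergenic peaks (1.88%). RefSeq lists these elements from the VISTA collection, which holds sequences tested for enhancer activity in transgenic embryos. The share was 0.666% over all peaks, 1.42% in peaks inside transcripts at the same distance, 1.26% in those over 100 kb away and 0 of the 2440 that overlapped a TSS. These shares carry no test and depend on which sequences the collection took up. Activity of the elements in the testis was not examined. ChIP counts at the 26 peaks ran from 16 to 106 with a median of 50 in replicate 1 and from 17 to 84 with a median of 39.5 in replicate 2, while the input ran from 5 to 15 with a median of 8. Of the 26, 11 held AGGTCA, 10 held the E-box and 4 held the extended half-site. None was above or below the typical peak, where 1.53% and 0.0497% of all peaks were. The strongest, under mm1490 near Shisal2a, had 106, 84 and 7 counts. Element mm1017 near Wnt10a carried the tRNA peak given above. Element mm569, between genes upstream of Hmga2, which encodes a chromatin protein of growing embryonic tissue, had 54, 54 and 10 counts. Element mm646 lay 27657 bp upstream of Hhat (226861), whose product attaches palmitate to Hedgehog ligands, and had 54, 37 and 12 counts. Element mm1565 near Gadd45g, a gene required for testis determination in mice, had 57, 38 and 8 counts. These examples were chosen after their values were seen.

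The 1384 peaks had 1173 different nearest genes, which is 4.48% of the 26180 curated genes. A single intergenic peak was nearest to 1003 of them, 2 to 141 and at least 3 to 29. Of the 1173 genes 121 (10.3%) also had a peak overlapping a TSS, against 9.87% of all curated genes, and 671 had no peak of another class. The genes with most were the non-coding 9430078K24Rik (77290) with 6, Cpn2 and Skor1 with 5 each, and Sik1 and Cops8 (108679) with 4 each. Rps6-ps4, Fos and Lacc1 also had 4. The 6 peaks of 9430078K24Rik lay on both sides of it, between Rad51b and Zfp36l1, with 37 to 139 counts in replicate 1, 35 to 103 in replicate 2 and 4 to 11 in the input. The highest of these, 64809 bp from the TSS, had 139, 103 and 11 counts, and 3 of the 6 held an E-box. Skor1 (207667) encodes a transcriptional corepressor, and its 5 peaks had 23 to 60, 21 to 47 and 5 to 13 counts, all between Pias1 and Skor1. The 4 peaks near Sik1 had 45 to 132, 38 to 118 and 9 to 13 counts, and of these only the one given above was called.

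Peaks with gaps of at most 20 kb were joined into runs. Of the 1384 peaks, 1140 (82.4%) stood alone, 200 formed pairs, 30 formed runs of 3 and 14 formed 3 longer runs. The longest had 6 peaks over 59.7 kb of chromosome 15, from 85610807 to 85670540, between AU022754 and Lncppara (102800312). Their nearest genes were Wnt7b (22422), a Wnt ligand gene, for 3 peaks and Lncppara for 3, and the counts summed to 357, 331 and 63. Within the run the 2 strongest peaks had 78, 88 and 11 counts and 77, 75 and 14 counts, both nearest to Lncppara. The second run had 4 peaks over 28.4 kb of chromosome 16, between Hes1 and Cpn2 (71756), and summed to 306, 237 and 57. Its peaks lay 67314 to 95375 bp from the TSS of Cpn2, whose product is a subunit of a plasma carboxypeptidase. The strongest of them had 94, 87 and 14 counts. The third had 4 peaks over 40.7 kb of chromosome 9, between Pias1 and Skor1, and summed to 194, 150 and 33. A run of 3 peaks near Wnt10a, over 10.7 kb of chromosome 1, had the highest ChIP sums of the runs of 3, with 291, 235 and 22.

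Gene lists for the cell types and pathways of the fetal testis were then examined for genes nearest to an intergenic peak. Against 4.48% of all curated genes, which include many non-coding genes, the share nearest to an intergenic peak was 28.6% for retinoic acid metabolism (4 of 14 genes), 21.8% for extracellular matrix (12 of 55), 18.5% for interstitial and steroidogenic progenitor genes (5 of 27), 17.0% for the Wnt pathway (8 of 47) and 16.7% for the Hedgehog pathway (3 of 18). It was 15.4% for fetal Leydig and steroidogenesis genes (4 of 26), 12.5% for TGF-beta, activin and BMP signaling (5 of 40), 10% for developmental transcription factors (11 of 110) and 10% for germ cell genes (2 of 20). The lists were chosen with earlier results of these data known, some genes are in more than one of them, and the shares carry no test. Among genes with a peak of any class, 14.54% of all genes had an intergenic one. Of the lists with any such gene, 11 were above this share, from 18.6% of developmental transcription factors (11 of 59) to 57.1% of retinoic acid genes (4 of 7), and 4 were below it, from 13.3% for Notch (2 of 15) to 4.55% for nuclear receptor genes (1 of 22). The order also depended on how genes were assigned. Counting every gene with a TSS within 100 kb, the share over that of all genes went from 6.38 to 2.32 for retinoic acid genes, which fell below matrix (4.87 to 2.95) and interstitial genes (4.13 to 2.71). It went from 3.799 to 2.07 for Wnt and from 3.72 to 1.80 for Hedgehog genes, and for Notch genes it rose from 1.79 to 2.27, above both. No intergenic peak nearest to a listed gene was above or below the typical peak after adjustment. Over all intergenic peaks 0.867% were above and 0.145% below, and over all peaks 1.53% and 0.0497%.

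**Figure D5:**
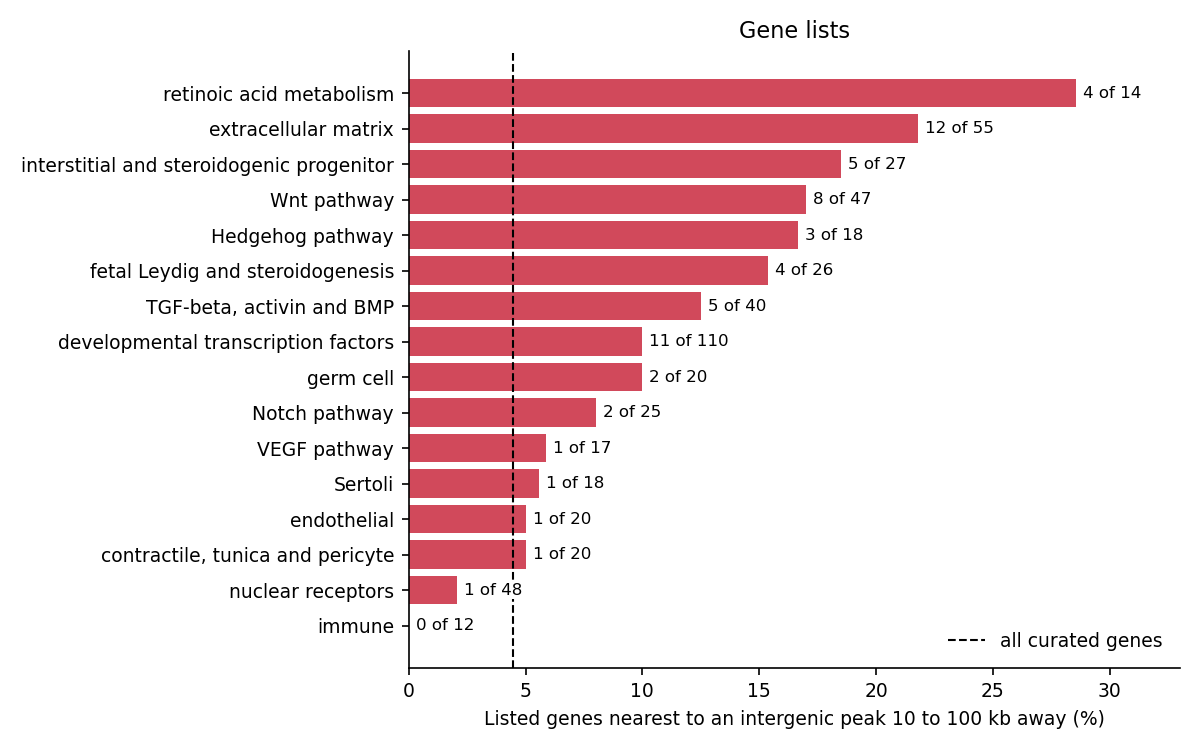
Percentage of the genes of each list that were the nearest gene of an intergenic peak 10 to 100 kb away, with the counts beside each bar and the share of all curated genes (4.48%) as a dashed line. The retinoic acid and extracellular matrix lists have the longest bars, and the immune list has none.

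Among the retinoic acid genes, Cyp26b1 (232174), whose enzyme degrades retinoic acid, had 2 peaks on its 3′ side. The peak 30505 bp from the TSS had 52, 34 and 13 counts and an E-box, and the peak 84190 bp away had 31, 26 and 8 counts and an extended half-site. Dhrs3 (20148), whose enzyme reduces retinaldehyde to retinol, had a peak 56390 bp away with 40, 40 and 7 counts and an E-box. The synthetic enzyme gene Aldh1a3 and the binding protein gene Crabp1 made up the list's 4.

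In the Wnt pathway the ligand gene Wnt4 (22417) had the strongest peak, 28341 bp from the TSS on its 3′ side toward Cdc42, with 118, 94 and 16 counts and an E-box. Wnt4 acts in ovary and kidney development. A peak 17571 bp upstream of Axin2 (12006), which encodes a feedback inhibitor of Wnt signaling, had 66, 83 and 13 counts and an extended half-site in a direct repeat. Tcf7l2 (21416), a transcription factor of the pathway, had one with 41, 51 and 8 counts. The ligand gene Wnt5a, the receptor genes Fzd7 and Ror2, the R-spondin gene Rspo4 and the factor gene Lef1 completed the 8. Wnt10a and Wnt7b were outside this list.

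In the matrix list the genes were mostly collagens and laminins: Col1a2, Col5a1, Col5a2, Col6a2, Col6a3, Col15a1, Col18a1, Lama4, Lamb1, Lamc1, with Fbn1 and Mmp14. The peak 67523 bp upstream of Col5a1 (12831), a fibrillar collagen gene, had 61, 46 and 6 counts. The one 11662 bp from the TSS of Mmp14 (17387), a membrane-bound protease that cleaves matrix, had 59, 39 and 14 counts, with an extended half-site and an E-box. The one 16801 bp upstream of Lamb1 (16777), a laminin chain of basement membranes, had 51, 38 and 6 counts and an E-box.

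The interstitial and progenitor list was represented by Gli2, Smad3, Tcf21, Tmsb10 and Wnt5a. Tcf21 (21412) encodes a bHLH factor of the gonadal stroma and had 3 peaks on both sides of the gene, with 21, 24 and 30 counts in replicate 1, 17, 34 and 36 in replicate 2 and 1, 6 and 4 in the input. None of these 3 held an E-box, and 1 held an extended half-site. A peak 33265 bp upstream of Smad3 (17127), which transmits TGF-beta and activin signals, had 65, 39 and 10 counts, and one 22313 bp upstream of Tmsb10 (19240) had 42, 31 and 6. In the Hedgehog list the receptor component Boc (117606) and the effector Gli2 (14633) had weaker peaks than Hhat, with 23, 19 and 6 counts and 13, 17 and 8 counts.

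Of the fetal Leydig and steroidogenesis genes, Hsd17b3 (15487), whose enzyme makes testosterone from androstenedione, had a peak 53836 bp from the TSS with 36, 33 and 7 counts. Hsd17b12 (56348), of the same enzyme family, had one with 35, 52 and 10, and the prolactin receptor gene Prlr (19116) one with 26, 34 and 4. Fdx1, whose product passes electrons to steroidogenic enzymes, was the fourth. In the TGF-beta list, peaks near Smad5 (17129) and Bmp2 (12156) had 59, 46 and 7 counts and 29, 40 and 12 counts. Over all intergenic peaks the medians were 33, 29 and 7, and the Smad5 peak was above the upper quartiles of 47 and 40 in both ChIP replicates.

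Among the developmental transcription factors, the peak upstream of Msx2 (17702), a homeobox gene, had 51, 37 and 12 counts and both an extended half-site and an E-box. The peak near Foxo1 (56458) had 39, 29 and 7 counts and the one near Lmo4 (16911) 37, 30 and 5. The lists for other cell types of the testis held few genes with an intergenic peak. For Sertoli cells it was Cldn11 (18417), a tight junction gene, with 2 peaks of 73, 48 and 16 counts and 72, 45 and 9 counts, each with an E-box. For germ cells these were Sall4 (99377) with 27, 36 and 10 counts and 3 extended half-sites, and Prdm1 (12142) with 22, 20 and 7. Endothelial genes were represented by Sox7 (20680) with 19, 25 and 7 counts, contractile genes by Smtn (29856) with 52, 52 and 5, and the VEGF pathway by Vegfa (22339) with 33, 19 and 8. Hes1 (15205) and Maml3 (433586) of the Notch pathway had 25, 25 and 7 and 28, 29 and 6 counts. The 48 nuclear receptor genes had 1 intergenic peak, near Nr4a3 (18124), with 13, 17 and 1 counts, and the 12 immune genes had none. The peaks were counted in chromatin of the whole organ, so the lists name positions and not the cells in which a site was bound.

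Other genes with several intergenic peaks were looked at after their values were seen. Dlk1 (13386), an imprinted gene expressed in fetal Leydig cells, had 3 upstream peaks, at 15619, 34875 and 63481 bp. Their counts were 87, 89 and 80 in replicate 1, 61, 64 and 92 in replicate 2 and 14, 19 and 8 in the input, so all 3 lay in the upper quartile of ChIP counts. The one farthest from the TSS held an extended half-site. Fos (14281), an AP-1 subunit gene, had 4 peaks on both sides, with 18 to 59 counts in replicate 1, 21 to 44 in replicate 2 and 5 to 9 in the input, and Lacc1 (210808) had 4 with 16 to 40, 21 to 51 and 5 to 11. All 4 Lacc1 peaks held AGGTCA and 2 held a direct repeat with a spacer of 1 base.

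The limits of 10 and 100 kb cut through a continuous range. Just inside the near limit were peaks near Gm19723 (100503490) at 10003 bp, with 26, 25 and 3 counts, and near Mir6413 (102466647) at 10028 bp, with 16, 15 and 5. Just outside it were peaks near Mpst (246221) at 10000 bp, with 75, 52 and 8 counts, and near A630077J23Rik (319973) at 9990 bp, with 19, 30 and 8. At the far limit, peaks near Stk31 (77485) at 99889 bp and Cbln4 (228942) at 99827 bp had 17, 11 and 4 and 49, 40 and 11 counts. Beyond it, peaks near Mrps6 (121022) at 100190 bp and Lacc1 (210808) at 100212 bp had 37, 32 and 10 and 26, 18 and 6. The peak near Lacc1 lay in the same stretch as the 4 intergenic peaks of that gene.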

How the data were processed

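Libraries were 75-base single-end reads. The authors trimmed reads with Trim Galore 0.6.7, mapped them to mm10 with Bowtie2 in local mode, kept a mapping quality of at least 5, removed duplicates with Picard 1.110, merged the ChIP replicates, called peaks with HOMER 4.11.1 in its transcription factor mode, resized them to 300 bp and removed blacklisted regions. The deposited table holds raw read counts per peak for 3 libraries. For the assignment of reads to peaks, the rule was not stated in these sources. Since peaks were called on the reads that were then counted, the selection favors ChIP over input at every peak.

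Peaks were placed on 45756 curated transcripts (names starting NM or NR) of 26180 genes on 21 chromosomes in the RefSeq annotation of GRCm38, the same assembly as mm10. The members and the gene lists were chosen with earlier results of these data known. Counts were compared with edgeR 4.0.16 (glmQLFit, TMM) and limma 3.58.1 in R 4.3.3, with ChIP against input over all peaks, Benjamini-Hochberg adjustment and a threshold of 0.05. The script was tested on simulated counts. DESeq2 1.42.0, other scaling, a minimum of 10 input counts, a robust fit and the omission of X and Y were alternatives. Because 1 input served both ChIP libraries, its counting error is shared, its spread is not measured, and library totals at peaks limit precision to counting error at low counts. Ratios had 0.5 added to each count. Wilson intervals (95%) and the floor of 3 counts cover counting error only. Motifs were searched as fixed letters on both strands with Python 3.11.15, numpy 2.4.6, pandas 2.3.3 and scipy 1.17.1.

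Named were the 6 peaks with most ChIP counts, all called peaks, those with extreme input counts, the strongest peaks near listed genes, the genes and runs with most peaks, peaks at the distance limits, peaks in other gene models, and the 6 strongest with an extended half-site. Genes named outside this rule are marked in the text or listed without values.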

Additional observations from a re-analysis of the deposited data

How the results depend on the processing

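The calls depended on the scaling. Against 14 intergenic peaks called with TMM, 3 were called with DESeq2's size factors in edgeR (3 above and 0 below, with 88 above and 51 below at an unadjusted p under 0.05), 8 without TMM factors (6 above, with 84 above and 89 below unadjusted), 2 by DESeq2 (2 above and 0 below, with 21 above and 3 below unadjusted) and 6 with at least 10 input counts (4 above, of 296 peaks). In the same order 0.387%, 1.01%, 0.218% and 2.39% of all peaks were called above. No call changed direction, and the robust fit and the fit without X and Y gave the same 14. The single peak that differed between ChIP replicates was lost with at least 10 input counts, which left 0. The median ratio of ChIP to input was 3.03 with 5 added to each count and 3.60 with at least 10 input counts, and 4.14 to 4.58 with either ChIP replicate left out. The log2 difference from peaks inside transcripts was 0.012 with 5 added and -0.059 with at least 10 input counts, and that from peaks over 100 kb away was 0.15 with at least 10 input counts. With either ChIP replicate left out, these differences were 0.02 to 0.03 and 0.02 to 0.10, and those from peaks overlapping a TSS and from all other peaks were -0.28 to -0.10 and -0.18 to -0.10. The share of peaks over flanks for the extended half-site was 4.58 with flanks 1 kb away and 8.69 in the central 100 bp, where it was 4.72 for AGGTCA and 4.47 for the E-box. Outside soft-masked bases 12.8% of peaks held the extended half-site and 47.9% AGGTCA. The share of retinoic acid genes over that of all genes was 2.32 when any TSS within 100 kb was counted, against 6.38 for the nearest gene. The same change took the Leydig list from 3.43 to 1.87, the interstitial list from 4.13 to 2.71 and the developmental factors from 2.23 to 1.403. It took 4 lists with 1 gene each below that of all genes: Sertoli from 1.24 to 0.45, VEGF from 1.31 to 0.48, and endothelial and contractile genes each from 1.12 to 0.41. With predicted transcripts added to the gene models the class held 1123 peaks, 901 of them shared, and with GENCODE M21, an alternative chosen after seeing the data, 1136 and 823. The cause of these changes was not tested. Leaving out a ChIP replicate leaves the test no residual degrees of freedom, so calls were not recomputed that way. No paired analysis was possible because a single input library served both ChIP replicates.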
